A study of Homo sapiens with 9 samples.

Results

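Syndecans and glypicans are the core proteins of most heparan sulfate on the cell surface. The genes described here are the 7 entries of the count table named SDC1, SDC2, SDC3, SDC4, GPC1, GPC4 and GPC6, of 23710 entries in all, taken by symbol from a choice of genes made with earlier results of these data known. They comprise 4 syndecans and 3 glypicans. Their transcripts were counted in MDA-MB-231, a cell line established from a human breast carcinoma of the triple-negative type. Every group received a pGIPZ lentivirus that expresses a short hairpin RNA, with a non-targeting hairpin (shNT) in the controls and a hairpin against UGDH, shUGDH-1 or shUGDH-2, in the others, and each group had 3 libraries, 9 in all. Groups were read from the sample titles, because the shRNA field of every knockdown library names shNT beside its UGDH hairpin, and whether those cells also carried the control vector cannot be told from the labels. The labels call the cultures biological replicates. They do not say whether each was transduced separately or whether a line is a clone, and p-values therefore reflect the scatter of these libraries alone, part of which may be technical.

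A syndecan crosses the membrane once and ends in a short cytoplasmic tail, whereas a glypican is held in the outer leaflet by a glycosylphosphatidylinositol (GPI) anchor. Both carry heparan sulfate chains that begin on serine residues of the core and gather growth factors, morphogens and chemokines at the cell surface, and the chains of some syndecans include chondroitin sulfate. UGDH, UDP-glucose 6-dehydrogenase, makes UDP-glucuronate, the donor of the glucuronate in the linkage region and in the repeating units of these chains. The question put to the data is whether the cores that receive the chains differ in transcript level after UGDH knockdown, with either hairpin or with both. RNA counts say nothing of the amount of core protein or of the length of its chains.

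The labels give the hairpin sequences, shown here because each UGDH group rests on a single one. Capitals mark bases 2 to 8. In the strand that pairs with targets these are the seed, through which a small RNA can also pair with other transcripts.
shNT: aTCTCGCTtgggcgagagtaag
shUGDH-1: tTGCATCAaatatgcgacg
shUGDH-2: aTATACTTcagatctgctg
The shUGDH-1 and shUGDH-2 sequences are antisense to bases of UGDH transcript ENST00000316423.10 that begin at positions 764 and 651, and the shNT sequence matched no part of it. Levels are given as CPM, read counts scaled to the total of the library. UGDH stood at 53.0, 55.6 and 50.3 CPM with shNT, at 7.62, 7.30 and 8.03 CPM with shUGDH-1 and at 8.09, 6.62 and 6.79 CPM with shUGDH-2. It was thus lower in every library of either UGDH hairpin than in any control. No full match to a hairpin was found in the longest GENCODE transcript of any syndecan or glypican listed. Seed matches of the UGDH hairpins were found in none of SDC1, SDC2, SDC3 and SDC4. For shUGDH-1 there was 1 in GPC1 and 2 in GPC6, against 20.7% of 22310 transcripts with such a match. For shUGDH-2 there was 1 in GPC4 and 1 in GPC6, against 16.6% of transcripts. Bases 2 to 8 of the shNT sequence matched SDC4 and GPC1 at 1 place each, against 14.1% of transcripts. The shNT sequence has no target here to show whether it is the strand that pairs, so these may not be seed matches. A match describes letters only.

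Total counts per library lay between 9249738 and 13328002, with the lowest in replicate 3 of shUGDH-1, and 12546 genes passed the filter on low counts. The variance between 2 libraries of a group was 1.2 to 1.91 times that of counting, highest where shNT replicate 1 entered the pair (1.91 and 1.87). Of 7 listed markers of mesenchymal lines, all were counted in every library, with VIM at 2210 CPM and AXL at 2260 CPM with shNT, beside ESR1 with at most 1 count and PGR with 0 in each library. Of the listed markers of other cell types, 2 leukocyte, 3 fibroblast and 1 endothelial gene had enough reads to be tested. CD68 had 763 to 1193 reads per library and fell with both hairpins (-0.16 and -0.12), and CD14 had 18 to 33 reads and did not pass. COL1A2, with 40 to 153 reads, rose with shUGDH-1 (0.91) and fell with shUGDH-2 (-0.70), COL1A1, with 88 to 169 reads, rose with shUGDH-2 (0.42), and PDGFRB, with 193 to 294 reads, did not pass, nor did KDR with 27 to 46 reads. These genes, and GATA3 further on, were named after their values were seen and were not refitted under other settings. PTPRC had at most 2 reads, CDH5 at most 1, and CD3E, MS4A1, DCN and LUM had 0. The part of these genes in the syndecan results was not tested.

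The genes lie apart in the genome. In GRCh38, a build other than the hg19 named in the submitters' notes, GENCODE places SDC1 at chr2:20200797-20225433 and GPC1 at chr2:240435671-240468078, SDC2 at chr8:96493351-96611780, SDC3 at chr1:30869467-30908761, SDC4 at chr20:45325288-45348424, GPC4 at chrX:133300103-133415490 and GPC6 at chr13:93226842-94407401.

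Of the 7 genes, 6 passed the filter on low counts and were tested, and GPC4 did not because no library held a read of it. Levels can be compared between genes only per length, and the values in this paragraph are CPM per kb of exons, with lengths from GENCODE release 29. SDC4 was the most abundant core in the controls, at 125 ± 2.94 CPM per kb (SD, n = 3), above 98% of 12208 tested genes of known length. SDC1 followed at 38.8 ± 1.06, GPC1 at 15.7 ± 0.317, SDC3 at 12.8 ± 0.392, SDC2 at 3.33 ± 0.417 and GPC6 at 0.804 ± 0.129 CPM per kb (SD, n = 3). Neighbours in this order did not overlap among the control libraries. With shUGDH-2, GPC1 at 14.6 to 15.4 and SDC3 at 12.8 to 14.8 CPM per kb did overlap, so these 2 cannot be ordered there. The order of the means was the same in all 3 groups and with the length of the longest transcript, although GPC1 then stood at 27.6 CPM per kb. As a share of the summed per-kb level of the 7 genes, SDC4 made up 63.5% ± 0.43 with shNT, 63.2% ± 0.65 with shUGDH-1 and 67.8% ± 0.27 with shUGDH-2 (SD, n = 3). SDC1 made up 19.8% ± 0.42, 20.5% ± 0.59 and 17.6% ± 0.47, and GPC1 8.03% ± 0.051, 7.37% ± 0.17 and 6.64% ± 0.16 (SD, n = 3). The shares were taken with exon lengths only and depend on the length used, as the GPC1 level does, which these SDs do not cover. Syndecans thus made up most of the summed level of the 7 genes in every group, with GPC1 as the main glypican.

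**Figure D1:**
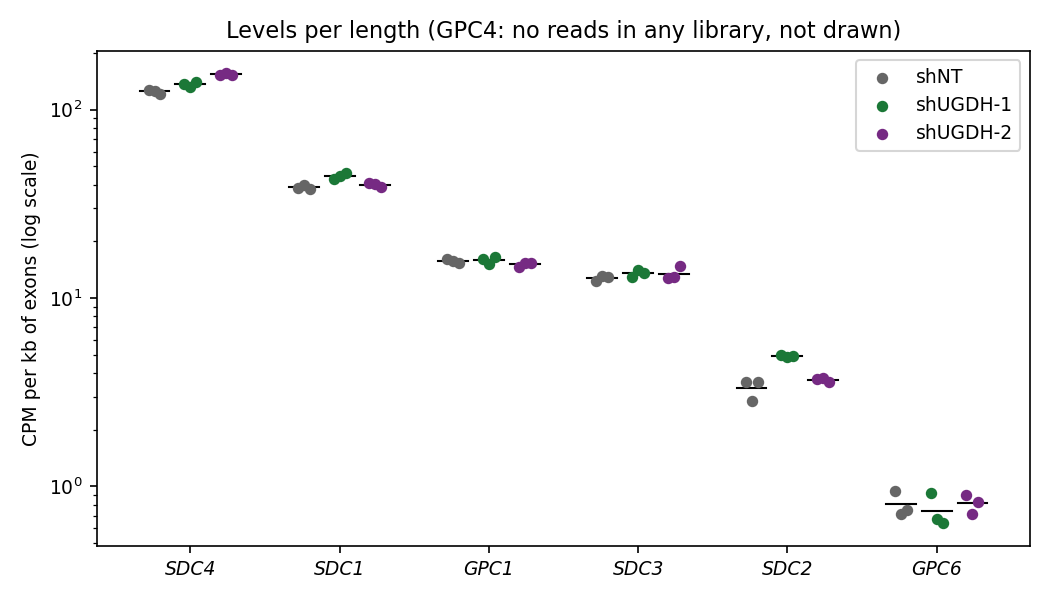
Level of each gene as CPM per kb of exons on a log axis, with 1 point per library, a bar at the group mean, and colours for shNT, shUGDH-1 and shUGDH-2. SDC4 lies at the top in every group, from 125 CPM per kb with shNT to 154 with shUGDH-2, and GPC6 at the bottom, under 1 CPM per kb.

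SDC4, a syndecan of focal adhesions that binds fibronectin together with integrins, rose with both hairpins. It stood at 332, 327 and 317 CPM in the shNT libraries, at 356, 345 and 369 CPM with shUGDH-1 and at 398, 408 and 401 CPM with shUGDH-2. The 3 groups did not overlap, and every shUGDH-2 library lay above every shUGDH-1 library. In edgeR's quasi-likelihood fit, with p-values adjusted over all genes tested by the method of Benjamini and Hochberg, the log2 fold change against shNT was 0.13 under shUGDH-1 (SE 0.03, adjusted p = 6.6e-05). Under shUGDH-2 it was 0.31 (SE 0.03, adjusted p = 2.3e-15). These are rises of 1.09-fold and 1.24-fold. In bulk RNA, a different number of cells with a transcript and a different amount per cell cannot be told apart. The difference between the hairpins, 0.18 on the log2 scale (SE 0.03, 95% interval 0.127 to 0.226), had an adjusted p of 1.3e-07 in the same fit.

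SDC1, the main syndecan of epithelial cells, rose with shUGDH-1. Its levels were 138, 144 and 136 CPM in the controls, 153, 160.5 and 165 CPM with shUGDH-1 and 146, 145 and 140 CPM with shUGDH-2. All shUGDH-1 libraries lay above all others, while the shUGDH-2 and shNT libraries overlapped. Its log2 value against shNT under shUGDH-1 was 0.19 (SE 0.04, adjusted p = 2e-05), a rise of 1.14-fold. With shUGDH-2 it was 0.04 (SE 0.04, 95% interval -0.028 to 0.112, adjusted p = 0.48), an interval that leaves room for a rise smaller than the value with shUGDH-1. The level with shUGDH-2 was lower than with shUGDH-1 by a tested log2 difference of -0.15 (SE 0.03, adjusted p = 0.0014).

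SDC2, a syndecan typical of mesenchymal cells, showed the largest fold change of the 6 genes tested. It was counted at 16.2, 12.9 and 16.2 CPM in the shNT libraries, at 22.7, 21.97 and 22.3 CPM with shUGDH-1 and at 16.9, 17.1 and 16.2 CPM with shUGDH-2. These levels rest on 152 to 295 reads per library. The shUGDH-1 libraries stood apart from both other groups, and control replicate 2 was the lowest of all 9. With shUGDH-1 it was higher by 0.56 on the log2 scale (SE 0.09, adjusted p = 1.2e-06), a rise of 1.47-fold. With shUGDH-2 it was 0.145 (SE 0.09, 95% interval -0.040 to 0.329, adjusted p = 0.33). The difference between the hairpins was -0.415 (SE 0.09, adjusted p = 0.00031), lower with shUGDH-2. Without control replicate 2, the values against shNT were 0.46 and 0.05, and the rise with shUGDH-1 still passed at an adjusted p of 9.9e-05.

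SDC3, best known from the nervous system, did not pass in any comparison. Its libraries held 87.0, 92.2 and 91.2 CPM in the controls, 91.9, 99.3 and 96.4 CPM with shUGDH-1 and 90.2, 91.3 and 105 CPM with shUGDH-2. The groups overlapped, and the highest value of all was replicate 3 of shUGDH-2. The log2 fold changes were 0.09 (95% interval -0.001 to 0.181, adjusted p = 0.17) and 0.08 (95% interval -0.008 to 0.173, adjusted p = 0.24). Without that library the value with shUGDH-2 was 0.01. Between the hairpins it was -0.01 (95% interval -0.097 to 0.083).

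**Figure D2:**
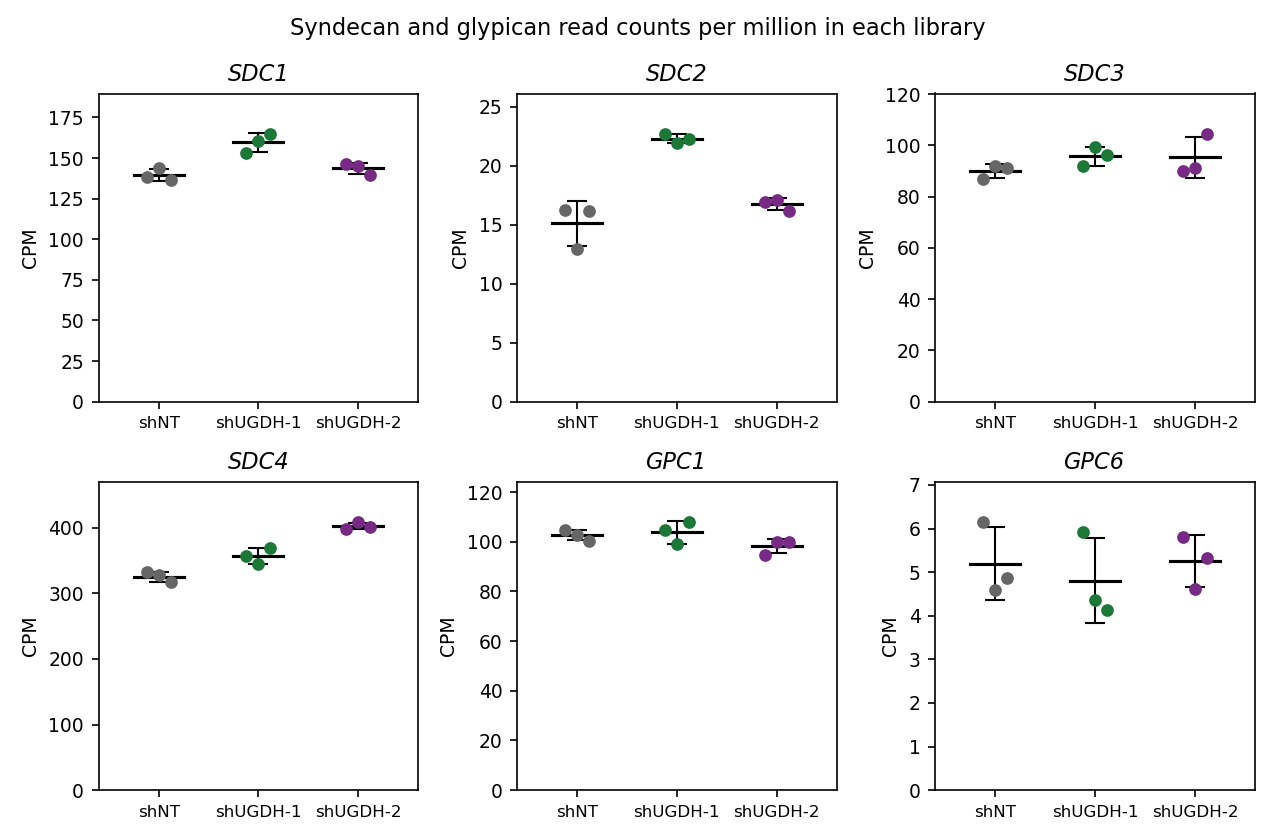
CPM of each tested gene in each library, in 1 panel per gene with an axis that starts at 0; points are libraries, long bars group means and short caps the SD of 3 libraries. SDC4 rises from shNT to shUGDH-1 to shUGDH-2 without overlap, SDC1 and SDC2 are high with shUGDH-1 alone, and the groups overlap for SDC3 and GPC6.

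Of the glypicans, GPC1, the one most often found in carcinoma cells, was counted at 104.6, 102.8 and 100.4 CPM in the shNT libraries, at 105, 98.9 and 108 CPM with shUGDH-1 and at 94.8, 99.96 and 100 CPM with shUGDH-2. The shUGDH-2 libraries all lay below the controls by a narrow margin, whereas shUGDH-1 spanned them. The value against shNT on the log2 scale was 0.01 (95% interval -0.068 to 0.092, adjusted p = 0.88) with shUGDH-1 and -0.06 (95% interval -0.142 to 0.018, adjusted p = 0.34) with shUGDH-2. GPC1 has the highest GC content of the 7 genes, 66.7% of its longest transcript. With per-library offsets that remove the trend with GC content and transcript length it reached -0.10 (adjusted p = 0.061) and -0.16 (adjusted p = 0.0025), so that the difference with shUGDH-2 then passed as a fall.

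GPC6 was low, with 38 to 80 reads per library. It stood at 6.15, 4.59 and 4.86 CPM in the shNT libraries, at 5.93, 4.36 and 4.12 CPM with shUGDH-1 and at 5.81, 4.62 and 5.33 CPM with shUGDH-2. Replicate 1 held the highest value in each group, and the groups overlapped throughout. The log2 fold changes of -0.10 (95% interval -0.438 to 0.233, adjusted p = 0.74) and 0.004 (95% interval -0.323 to 0.331, adjusted p = 0.99) each have an interval that includes the SDC4 value of the same comparison. An antisense transcript of another gene shares 476 exon bases with GPC6, and without a stated strand setting in counting, reads from the 2 cannot be told apart.

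GPC4 had 0 reads in all 9 libraries. A count of 0 allows up to 3 reads per library, or 0.226 to 0.326 CPM, for counting error only. Taken over all 9 libraries together, 3 reads amount to 0.0275 CPM. GPC3 and GPC5, glypicans outside the 7, were also at 0 throughout, and GPC2 had 0 to 5 reads. At this depth the glypicans detected above a few reads were GPC1 and GPC6.

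Of the 6 genes tested, 3 rose with shUGDH-1 and none fell. In this comparison 20.8% of the 12546 genes tested passed, 10.5% as rises and 10.3% as falls, and the median log2 fold change was 0.11 over the 6 genes and -0.003 over all genes. With shUGDH-2, 1 of 6 rose and none fell, against 8.04% and 6.81% of all genes, with medians of 0.06 and -0.006. SDC4 was the 1 gene to rise with both hairpins, as 4.72% of all genes did, none fell with both, as 3.61% did, and the 2 comparisons share their controls. Between the hairpins 3 of 6 differed, SDC1 and SDC2 lower and SDC4 higher with shUGDH-2, where 10.9% of all genes differed, 5.36% higher and 5.51% lower. All 4 syndecans had positive values against shNT with both hairpins, but SDC3 and, with shUGDH-2, SDC1 and SDC2 did not pass. Among all genes that passed, the median absolute log2 fold change was 0.199 with shUGDH-1 and 0.18 with shUGDH-2, so SDC1 and SDC4 lay below that median with shUGDH-1, and SDC2 with shUGDH-1 and SDC4 with shUGDH-2 above it. The libraries did not overlap with the controls for 3 of the 6 genes with shUGDH-1, all 3 above them, where 34.1% of all genes did not and 17.3% lay above. With shUGDH-2 this held for SDC4 above and GPC1 below, where 28.5% of all genes did not overlap and 14.7% lay above. Between the hairpins SDC1, SDC2 and SDC4 did not overlap, as 27% of all genes, and SDC4 lay above with shUGDH-2, as 13.1% did.

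The authors' deposited tables, made with their own fit, gave the same side of an adjusted p of 0.05 for each tested gene. With shUGDH-1, the authors' deposited table lists log2 fold changes of 0.19 for SDC1 (adjusted p = 5.8e-05), 0.54 for SDC2 (adjusted p = 4.8e-06) and 0.13 for SDC4 (adjusted p = 0.00087). With shUGDH-2, the authors' deposited table lists 0.31 for SDC4 (adjusted p = 1.2e-29), and adjusted p-values of 0.58 for SDC1 and 0.52 for SDC2.

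**Figure D3:**
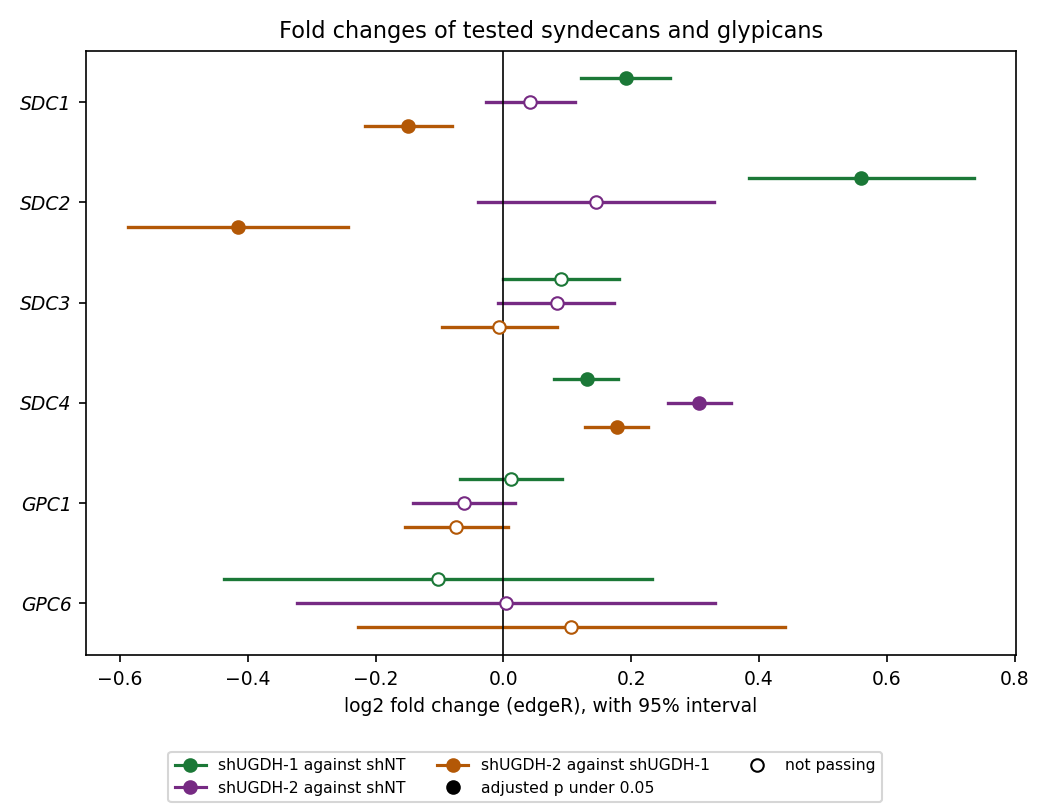
Log2 fold changes from the edgeR fit with 95% intervals for the 6 tested genes in 3 comparisons, filled where the adjusted p was under 0.05. SDC4 is above 0 in all 3 comparisons, while SDC1 and SDC2 are above 0 with shUGDH-1 (0.19 and 0.56) and below 0 between the hairpins.

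The 7 passing results, 3 with shUGDH-1, 1 with shUGDH-2 and 3 between the hairpins, passed in the same direction in every alternative fit. Each was refitted under 7 other settings, which changed the scaling, tool, filter, groups, replicate block or base-composition offsets. Each was also refitted 6 times with 1 library of the compared groups left out. Summed over the 7 results these are 91 alternatives. Values of SDC4 ranged from 0.11 to 0.15 with shUGDH-1 and from 0.29 to 0.32 with shUGDH-2 when 1 library was left out. The GC and length offsets moved the GC-rich SDC1 (60.1% GC) from 0.19 to 0.13 with shUGDH-1 and SDC3 (58.7% GC) from 0.09 to 0.02, but SDC4 (48.8% GC) from 0.13 to 0.12 and SDC2 (43.9% GC) from 0.56 to 0.59.

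**Figure D4:**
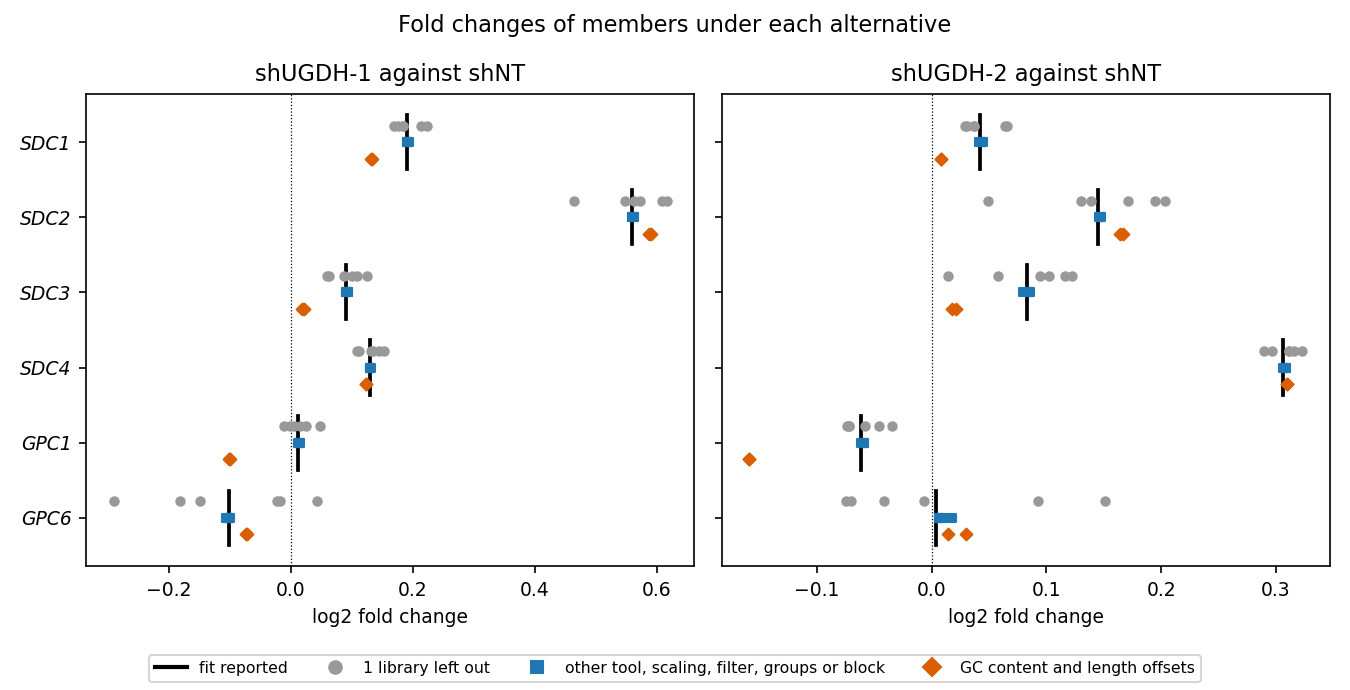
Log2 fold changes of the 6 tested genes against shNT in the fit reported (black bars), with 1 library left out (grey), with another tool, scaling, filter, set of groups or a replicate block (blue) and with GC content and length offsets (orange). SDC4 keeps to 0.11 to 0.15 with shUGDH-1 and 0.29 to 0.32 with shUGDH-2 as libraries are left out, and GPC1 moves to -0.10 and -0.16 with the offsets.

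The bases before the start sites are shown for 3 of the genes: SDC4, which rose with both hairpins, SDC1, which rose with shUGDH-1, and GPC6, which was low and did not pass. Each run is the 250 bases before a RefSeq start site in GRCh38.p14, 5′ to 3′ on the gene's strand, from chr20:45348425-45348674 on the minus strand for SDC4, chr2:20225476-20225725 on the minus strand for SDC1 and chr13:93226557-93226806 on the plus strand for GPC6. Capitals mark every match, on either strand, to 5 motifs, which include the GC box, spelled GGGCGG, and to the core of the classical promoter element TATAAA. The others are the binding motif of the AP-1 family, TGANTCA, the E-box that MYC and related proteins bind, which is CACGTG, and the NF-kB motif. In these 3 runs no match overlaps another.
SDC4: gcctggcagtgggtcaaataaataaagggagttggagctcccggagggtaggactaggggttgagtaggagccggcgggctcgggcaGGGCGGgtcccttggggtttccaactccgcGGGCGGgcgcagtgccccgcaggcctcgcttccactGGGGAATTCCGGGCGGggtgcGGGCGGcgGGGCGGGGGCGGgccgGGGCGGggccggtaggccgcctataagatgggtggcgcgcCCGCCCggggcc
SDC1: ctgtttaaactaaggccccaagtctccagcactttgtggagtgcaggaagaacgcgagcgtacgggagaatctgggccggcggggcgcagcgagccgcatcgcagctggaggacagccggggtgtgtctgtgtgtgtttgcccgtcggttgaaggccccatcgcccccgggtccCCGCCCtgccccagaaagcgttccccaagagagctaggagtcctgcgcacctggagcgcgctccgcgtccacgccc
GPC6: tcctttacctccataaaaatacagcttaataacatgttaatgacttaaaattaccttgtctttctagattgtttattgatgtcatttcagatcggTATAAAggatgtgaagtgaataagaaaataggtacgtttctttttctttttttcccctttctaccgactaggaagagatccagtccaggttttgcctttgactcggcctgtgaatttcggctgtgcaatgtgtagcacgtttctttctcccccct
The SDC4 run is 73.6% G and C and holds 8 GC boxes and 1 NF-kB match, at positions -97 to -88 from the start. The SDC1 run is 66.4% G and C with 1 GC box, and the GPC6 run 37.6% with no GC box and 1 TATAAA, at -155 to -150. Another SDC1 window, at chr2:20225131-20225380 and not shown, is 75.2% G and C with 1 GC box, at -68 to -63. Among 35116 such windows, 42.6% hold a GC box, 10.7% TATAAA and 5.21% an NF-kB match. Of the other genes with a window, SDC3 has 5 GC boxes, GPC1 4 and GPC4, which was not detected, 2. No window of SDC2 was examined. None of the windows of these genes held the AP-1 motif or the E-box, found in 6.57% and 6.34% of all windows. These are matches of letters, and no binding was measured.

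By the correlation of log2 CPM over the 9 libraries, the 3 genes most like SDC4 among 9224 of at least 10 CPM were POU2F2, DUSP4 and RNF10 (Pearson r 0.987, 0.981 and 0.964). DUSP4, a phosphatase of MAP kinases, went from 439 to 472 and 506 CPM in the order shNT, shUGDH-1, shUGDH-2. For SDC1 they were UBASH3B, NLRP2 and RRBP1 (0.979, 0.968 and 0.966), and for SDC2 GSN, which encodes the actin-severing protein gelsolin, ESYT1 and SDPR, a gene of caveolae (0.978, 0.970 and 0.965). GSN stood at 88.9, 111 and 95.5 CPM in the same order. The libraries fall into 3 groups, so these values describe a shared order of groups. Ranked by Spearman's rho instead, 1 of the 3 was shared for SDC4, 1 for SDC1 and none for SDC2.

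Genes related to syndecans and glypicans, other membrane proteoglycans among them, were counted from lists. Each count is to be read against the 20.8% of all genes that passed with shUGDH-1 and the 14.9% with shUGDH-2. Of 9 other membrane proteoglycans tested, 4 rose under shUGDH-1 and 2 fell, while under shUGDH-2 the numbers were 3 and 2 (medians 0.09 and 0.02). NRP2, a semaphorin and growth factor coreceptor, rose with both hairpins, at 1.26 and 1.03 on the log2 scale. CD74 moved in opposite directions, at -0.17 and 0.26, and CSPG4 likewise at 0.50 and -0.22, the latter with an adjusted p of 0.018 by edgeR and 0.093 by DESeq2. CD44 did not pass, at 1132 CPM with shNT and 1109 and 1113 CPM with the UGDH hairpins.

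Among 15 tested cytoplasmic partners of syndecan tails, 5 rose under shUGDH-1 and 2 fell, while under shUGDH-2 the numbers were 1 and 2 (medians 0.03 and 0.02). CASK, a scaffold that binds the syndecan C-terminus, fell with both hairpins, at -0.27 and -0.105 on the log2 scale. SDCBP, syntenin-1, which links syndecans to exosome formation, did not pass, at 127, 127 and 126 CPM. PRKCA, the protein kinase C that the SDC4 tail binds, fell with shUGDH-1 at -0.21 and stood at -0.06 with shUGDH-2 (adjusted p = 0.19, and 0.0036 at -0.10 with the GC and length offsets). TIAM1, an activator of Rac, rose with shUGDH-1 at 0.50 and stood at 0.18 with shUGDH-2 (adjusted p = 0.16). Of 10 tested coreceptors of syndecans, integrin subunits and IGF1R, 5 rose under shUGDH-1 and 1 fell, while under shUGDH-2 the numbers were 4 and 1. ITGB4 rose at 0.52 and 0.09, the latter at -0.001 with the GC and length offsets (adjusted p = 0.98). ITGAV did not pass, at -0.03 and -0.08.

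Of 15 tested genes for shedding and cleavage of the cores, 7 rose under shUGDH-1 and 3 fell, while under shUGDH-2 the numbers were 4 and 3 (medians 0.06 and 0.03). PLAT, tissue plasminogen activator, rose at 0.46 and 0.28, and PLAU, urokinase, fell at -0.18 and -0.07. TIMP3, an inhibitor of metalloproteases and of ADAM17, rose with shUGDH-1 at 0.52 and fell with shUGDH-2 at -0.78, and TIMP1 fell at -0.19 and -0.15. ADAM17 itself did not pass, at 39.7, 37.8 and 41.2 CPM. MMP14 rose at 0.08 and 0.09, the former at 0.03 with the offsets (adjusted p = 0.25) and the latter at 0.06. NOTUM, which releases glypicans by cutting their GPI anchor, had at most 1 read.

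Of 10 tested enzymes that start the chain, 1 rose under shUGDH-1 and 1 fell, while under shUGDH-2 the numbers were 2 and 1, near the share of all genes with shUGDH-1 (20.8%). XYLT2, which puts xylose on the core serine, rose at 0.26 and 0.21, and FAM20B, the kinase of that xylose, fell at -0.16 and -0.20. The FAM20B fall with shUGDH-1 did not pass without shNT replicate 1 (-0.12, adjusted p = 0.052) or without shUGDH-1 replicate 2 (-0.12, adjusted p = 0.073). B3GAT3, which adds the glucuronate of the linkage, did not pass, at 0.03 and -0.04. Of 9 tested enzymes that extend and modify heparan sulfate, 1 rose under shUGDH-1 and 1 fell, while under shUGDH-2 the numbers were 4 and 0. EXT1, a subunit of the heparan sulfate polymerase, rose at 0.18 and 0.11, and its partner EXT2 did not pass, at 0.02 and -0.03. NDST1 stood at 0.05 and 0.07, the latter passing at an adjusted p of 0.013 and at 0.01 with the offsets (adjusted p = 0.86). HPSE, heparanase, stood at 0.03 with shUGDH-1 and rose at 0.18 with shUGDH-2 (adjusted p = 0.036, and 0.16 by DESeq2). SULF1 had no read in any library and SULF2 at most 3. Of 28 tested GPI anchor genes, 1 rose under shUGDH-1 and 3 fell, while under shUGDH-2 the numbers were 0 and 1, below the shares of all genes that passed (20.8% and 14.9%).

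**Figure D5:**
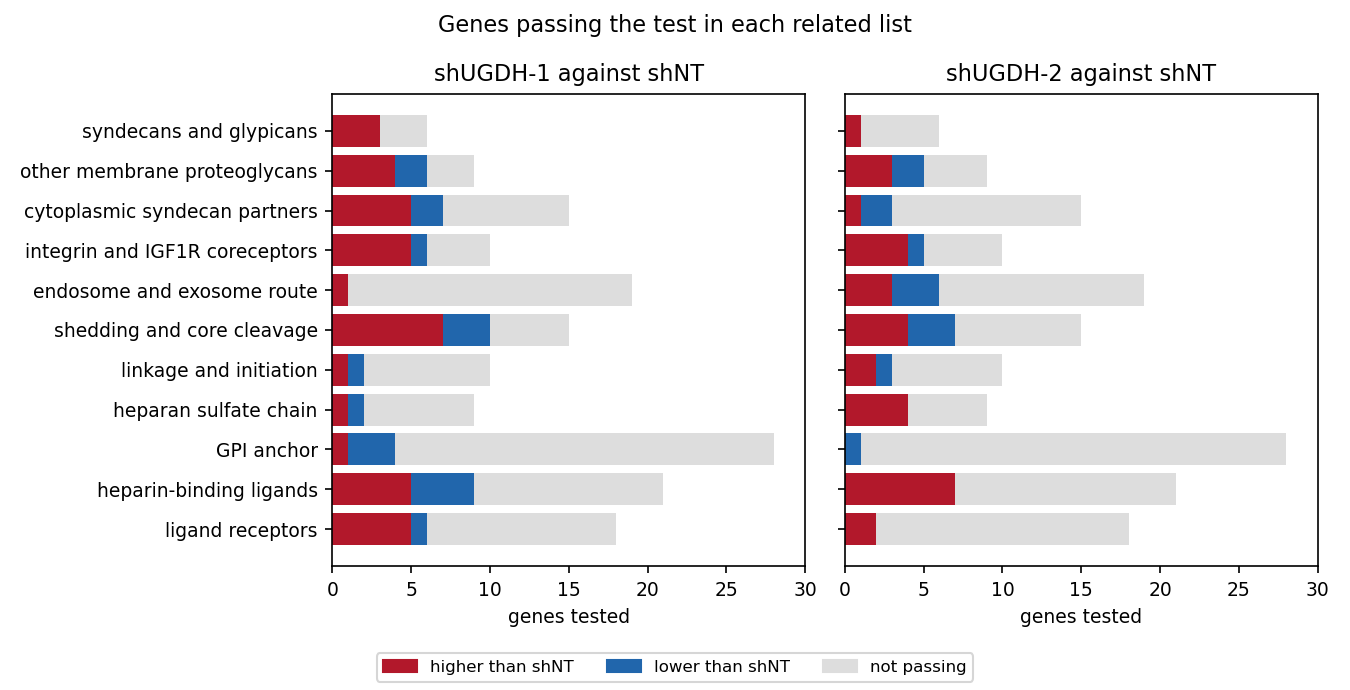
Number of tested genes in the syndecan and glypican set and in 10 related lists that were higher (red), lower (blue) or not passing (grey) against shNT at an adjusted p under 0.05, for each hairpin. Of the 6 syndecans and glypicans tested, 3 were higher with shUGDH-1 and 1 with shUGDH-2.

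Keratin transcripts also differed between the groups. Of 6 tested luminal breast markers, 4 rose and none fell with each hairpin, where 10.5% and 8.04% of all genes rose, and the list's summed level was 1207 to 1225 CPM in the controls, 1567 to 1601 CPM with shUGDH-1 and 1344 to 1384 CPM with shUGDH-2. In that list KRT8 rose from 625 CPM to 822 and 696 CPM. Neither KRT8 nor the count of this list was refitted under other settings. GATA3, a luminal transcription factor, stood at 37.5, 40.4 and 45.8 CPM and rose with shUGDH-2 (0.29, adjusted p = 4e-04). Of the same list, ESR1, PGR and FOXA1 had at most 1, 0 and 2 reads per library. Of 7 tested mesenchymal line markers, 4 rose and 1 fell with shUGDH-1, where 10.5% of all genes rose and 10.3% fell. With shUGDH-2, 2 rose and 1 fell, where 8.04% rose and 6.81% fell. The count of this list was not refitted either. Its summed level was 7810 to 7945 CPM in the controls, 8265 to 8333 CPM with shUGDH-1 and 7817 to 7959 CPM with shUGDH-2. The part of these marker differences in the syndecan results was not tested.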

How the data were processed

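RNA was sequenced in 9 libraries of MDA-MB-231 cells, 3 per hairpin. The deposited table holds raw read counts per gene, whole numbers with unequal sums. STAR, DESeq, DESeq2 and hg19 are named in the submitters' processing notes, while for versions, annotation, counting tool and strand setting the status is: not given in the sources used here. Per the file headers, each comparison table of the authors lists a baseMean (signal), the log2 fold change, its error, and the p-value before and after adjustment.

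The members and gene lists were chosen with earlier results of these data known. Of 23710 entries, 28 had symbols turned into dates (0.232% of counts) and were kept without a name. After edgeR 4.0.16 filterByExpr, 12546 genes (99.93% of counts) were scaled by TMM (factors 0.997 to 1.003) and fitted by robust quasi-likelihood, using 9 libraries and 1 mean for each group (6 residual degrees of freedom). Genes passed at a Benjamini-Hochberg adjusted p under 0.05. Intervals of fold changes are 95% and come from the fit. Alternatives were DESeq2 1.42.0, its size factors, no filter, only the groups compared, a replicate block, offsets for GC content and length, and leaving out each library. Length and GC content came from GENCODE release 29, matched by symbol for 22310 of 23708 names. Sequences before start sites came from RefSeq (GRCh38.p14) for 6 of 7 members, and no window of SDC2 was examined.

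Genes named were the 7 members, GPC2, GPC3, GPC5, UGDH, 16 fixed pathway genes whatever their result, up to 4 passing genes of each list with at least 1 CPM, those passing with both hairpins first, and the 3 genes most like each member that passed against shNT and had at least 10 CPM. Not all of them are printed.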

Additional observations from a re-analysis of the deposited data

Results flagged for a closer look

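In 3 genes the libraries of the 2 UGDH hairpins differed, by the tested contrast of shUGDH-2 with shUGDH-1, as did 10.9% of all genes tested. SDC1 differed by -0.149 on the log2 scale (adjusted p = 0.0014, edgeR's quasi-likelihood test), with 159.6 CPM under shUGDH-1 and 143.6 CPM under shUGDH-2. SDC2 differed by -0.415 (adjusted p = 0.00031), with 22.3 against 16.7 CPM. SDC4 differed the other way, by 0.177 (adjusted p = 1.3e-07), with 357 against 402 CPM. In each case all 3 libraries of 1 hairpin lay above all 3 of the other. The groups did not overlap in 27% of all genes. UGDH itself stood at 7.65 and 7.17 CPM (adjusted p = 0.74), and hairpin and cell line cannot be told apart.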

How the results depend on the processing

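The 7 fold changes of syndecans that passed did so in the same direction in all of their alternatives, 91 when summed over the 7. Of 344 alternatives of the values and counts of the 7 genes, 327 stayed on the same side and in the same direction, 13 reversed, 2 crossed the threshold and 2 changed a count. GC content and length offsets took GPC1 to -0.101 with shUGDH-1 and to -0.159 with shUGDH-2 (adjusted p = 0.0025), SDC3 between the hairpins to 0.003, and the number of these genes lower with shUGDH-2 from 0 to 1. The replicate block with these offsets gave -0.1 and -0.159 for GPC1 and the same count of 1. The replicate block alone gave 1298 higher and 1284 lower genes with shUGDH-1, against 1318 and 1287 without it. Same-numbered libraries correlated at -0.097 to 0.169. Of 18 combinations of a library and a group, 3 were best with their own number. No pairing by number was seen, but with 3 libraries per group this check could miss one. With 1 library left out, values ran from -0.077 to 0.031 for SDC3 between the hairpins, from -0.011 to 0.048 for GPC1 with shUGDH-1, and for GPC6 from -0.29 to 0.043 with shUGDH-1 and from -0.075 to 0.151 with shUGDH-2. None of these GPC6, SDC3 or GPC1 ranges holds a passing value.

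Among related genes, both offset fits gave -0.019 for NDST1, -0.032 and -0.031 for B3GAT3, 0.028 and 0.029 for ITGAV and 0.071 and 0.069 for SDCBP with shUGDH-1, and -0.047 and -0.046 for TMEM8A, -0.001 for ITGB4 and 0.052 and 0.055 for SDCBP with shUGDH-2. Leaving out 1 library gave -0.004 to 0.078 for HPSE, -0.003 to 0.044 for CAV1, -0.053 to 0.073 for SDCBP, -0.007 to 0.053 for EXT2, -0.006 to 0.069 for B3GAT3 and -0.054 to 0.008 for ITGAV with shUGDH-1, and -0.01 to 0.05 for TMEM8A, -0.056 to 0.069 for SDCBP and -0.046 to 0.007 for EXT2 with shUGDH-2. With 1 library left out, calls were lost for FAM20B and MMP14 with shUGDH-1 (MMP14 at 0.057 without shNT replicate 1 and 0.067 without shUGDH-1 replicate 3). With shUGDH-2 they were lost for CSPG4 (-0.173, -0.205 and -0.174 without shNT replicates 2 and 3 and shUGDH-2 replicate 2), HPSE (0.16, 0.167, 0.163 and 0.182 without replicates 2 and 3 of shNT and of shUGDH-2) and NDST1 (0.067 and 0.069 without replicate 3 of shNT or of shUGDH-2). The shUGDH-1 calls of DPM1, PIGA, PIGT, TGFB1 and TMEM8A were also lost when 1 library was left out. So were the shUGDH-2 calls of APP, CD63, EXTL3, HS3ST1, ITGB5 and PIGA. Of 1008 alternatives of list counts, 122 moved by more than 1.5 times. With the offsets, the shedding genes higher with shUGDH-1 went from 7 to 3, tail partners from 5 to 3, heparin-binding ligands from 5 to 3 and their receptors from 5 to 2. With shUGDH-2 they took modifying enzymes from 4 to 2 and coreceptors from 4 to 1. DESeq2 gave 2 for those coreceptors, 0 in place of 2 other membrane proteoglycans lower with shUGDH-2, and 1 in place of 3 GPI anchor genes lower with shUGDH-1. Over all genes DESeq2 called 866 higher and 745 lower with shUGDH-1, and with shUGDH-2 it called 589 and 367, where edgeR called 1009 and 855. The causes were not tested. GPC6 rests on 38 to 80 reads per library, and GPC4, with 0 reads, was not tested.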

Other observations

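The list counts in this section are to be read against the 20.8% of all genes that passed with shUGDH-1 and the 14.9% with shUGDH-2. Among 21 tested ligands that bind heparan sulfate, 5 were higher and 4 lower with shUGDH-1, and 7 were higher and 0 lower with shUGDH-2. PDGFB, a platelet-derived growth factor chain, went from 0.843 ± 0.216 CPM to 2.51 ± 0.836 and 2.37 ± 0.499 CPM (SD, n = 3). Its log2 fold changes were 1.51 (SE 0.31) and 1.47 (SE 0.31). They rest on few reads, as 3 reads in a library amount to 0.226 to 0.326 CPM. BMP4, a bone morphogenetic protein, rose, at log2 fold changes of 0.31 and 0.26. Summed over the list, levels were 2075 to 2107 CPM in the controls, 2051 to 2089 CPM with shUGDH-1 and 2271 to 2288 CPM with shUGDH-2. Of 18 tested receptors of such ligands, 5 were higher and 1 lower with shUGDH-1, and 2 were higher and 0 lower with shUGDH-2. CXCR4, the receptor of CXCL12, rose with shUGDH-1 by 0.82, and PTPRF rose with both hairpins, by 0.14 and 0.15, and by 0.06 and 0.07 with GC content and length offsets (adjusted p = 0.02 and 0.0038). Of 19 tested genes of endocytosis and exosomes, 1 was higher and 0 lower with shUGDH-1, and 3 were higher and 3 lower with shUGDH-2. CD9, a tetraspanin of exosomes, rose by 0.19 and 0.24.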
